A study of Mus musculus with 8 samples.

Results

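Cadherins and non-clustered protocadherins are cell adhesion receptors. The 34 genes described here, of 18939 genes counted, are those whose symbol in the deposited table is Cdh or Pcdh followed by a number (or, for Pcdh11x, a number and x). They comprise 22 cadherin and 12 protocadherin genes. The clustered protocadherins (Pcdha, Pcdhb and Pcdhg) are not among them. For a gene with several transcripts, the transcript with the most reads stands for the gene. By class there were 5 type I classical cadherins, 13 type II classical cadherins, 4 other cadherins, 4 delta-1 protocadherins, 5 delta-2 protocadherins and 3 other non-clustered protocadherins.

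RNA on tagged ribosomes was sequenced from the paraventricular nucleus of the thalamus (PVT), a midline nucleus that takes part in arousal and in responses to drugs and stress. All mice were OPRM1cre X EGFP-L10a on a C57Bl/6J background, 8 to 12 weeks old at the start, so that Cre, inserted at the mu opioid receptor gene Oprm1, switched on a green fluorescent ribosomal protein in cells that express or have expressed this receptor. The morphine group (4 libraries, replicates 3, 4, 7 and 8) drank 0.2% saccharin with morphine for 11 days, at first 0.3 and at last 0.5 mg/ml, and the control group (4 libraries, replicates 1, 2, 5 and 6) drank 0.2% saccharin alone. Each group had 2 male and 2 female libraries by the labels, and each library pooled the dissections of 2 mice. The pooling of control 5 is uncertain, since it is labelled female but held Y-linked genes at 33.8% of their mean in the male libraries. The dissection was aimed at the PVT and could include tissue around it, and the tag follows Oprm1 in any such tissue.

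Counts summed over the transcript that stands for each gene lay between 31151106 and 47582947 per library. Levels are CPM (counts scaled to the normalized library size) within a gene, and RPKM (CPM per kilobase of transcript) between genes. Oprm1 lay between 16.8 and 32.3 CPM in the controls and between 14.0 and 18.4 CPM in the morphine libraries. Markers of the midline thalamus (11 genes) summed to 2365 to 3160 CPM in the controls and 1837 to 3066 CPM in the morphine group. Of these 11 genes, 1 had a log2 fold change above 0 (median -0.26), 2 were lower and 0 higher at an unadjusted P value under 0.05 by edgeR's quasi-likelihood test, and edgeR and DESeq2 each called 0 after adjustment. Markers of other cells were also present. Those of telencephalic pyramidal neurons (13 genes) summed to 1690 to 2439 CPM against 2150 to 4320 CPM, with 8 of 13 higher and 1 lower at an unadjusted edgeR P value under 0.05 (median log2 fold change 0.99). After adjustment edgeR called 0 and DESeq2 called 6 of these 13. The lower one was Cux2, a marker of upper cortical layers, at 125 to 134 CPM in controls and 90.8 to 115 CPM with morphine. Its log2 fold change was -0.32 (adjusted P = 0.188 by edgeR and 0.0450 by DESeq2). Of the 13, 12 had log2 fold changes above 0, the largest in Neurod6 (3.32) and Neurod2 (2.38). Neurod6 had 1.51 to 13.7 CPM in controls and 30.6 to 70.7 CPM with morphine (adjusted P = 0.0569 by edgeR, 0.00116 by DESeq2). Neurod2 had 3.00 to 30.4 CPM and 51.4 to 93.1 CPM (adjusted P = 0.126 by edgeR, 0.0373 by DESeq2). Camk2a alone held 768 to 992 CPM of the control sums and 846 to 1615 CPM of the morphine sums. Markers of choroid plexus (13 genes) summed to 38.2 to 115 CPM against 137 to 407 CPM. Of these 13, 10 were higher at an unadjusted edgeR P value under 0.05 (median log2 fold change 1.67, 12 above 0). After adjustment edgeR called 0 and DESeq2 called 7 of them. Oligodendrocyte markers (10 genes) summed to 128 to 1298 CPM in the controls and 601 to 1582 CPM in the morphine group. All 10 had log2 fold changes above 0 (median 0.56), with 0 at an unadjusted P value under 0.05. Astrocyte markers (10 genes) summed to 252 to 444 CPM and 327 to 395 CPM, with 9 above 0 (median 0.37) and 1 higher without adjustment. Slc1a2 alone held 234 to 409 CPM of the control sums and 290 to 342 CPM of the morphine sums. For medial habenula (9 genes) the sums were 78.9 to 112 CPM and 85.6 to 109 CPM, with 6 above 0 (median 0.13) and 1 higher without adjustment. For ependyma (7 genes) they were at most 14.5 CPM, with 5 above 0 (median 0.25) and 1 higher without adjustment. EdgeR and DESeq2 each called 0 genes of these 4 lists after adjustment. Endothelial, fibroblast and microglial lists summed to at most 48.3 CPM in any library. No marker was at 0 in every library. The shares over all genes were 6.79% higher and 5.31% lower at an unadjusted edgeR P value under 0.05. DESeq2 called 3.29% of the genes to which it gave an adjusted P value. In RNA pooled from a dissection, fewer cells of a type and less RNA per cell cannot be told apart. The part of these marker differences in the results below was not tested.

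**Figure D1:**
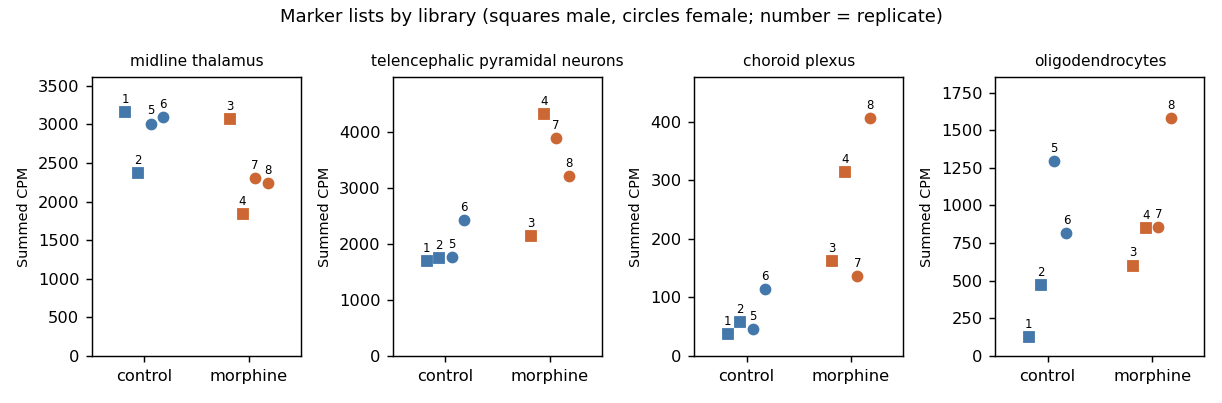
Summed CPM (y axis) of 4 marker lists in each of the 8 libraries, control in blue and morphine in orange, squares for male and circles for female libraries, with the replicate number above each point. The choroid plexus sums of the morphine libraries (137 to 407 CPM) all lie above those of the controls (38.2 to 115 CPM), while the oligodendrocyte sums overlap.

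Classical cadherins bind the same or a related cadherin on the neighbouring cell through calcium-dependent extracellular repeats, and their tails hold beta- and p120-family catenins that tie them to actin. Type I cadherins, such as N-cadherin (Cdh2), are mostly broad in expression. Type II cadherins are expressed by distinct sets of neurons, nuclei and layers, and take part in sorting cells and matching axons with targets. Delta protocadherins adhere more weakly, and several of them bind the WAVE complex, which starts branched actin filaments. In thalamus and cortex, members of both families are known for their patterned, nucleus-specific or layer-specific expression.

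The promoters of 3 members are shown because they stand for the range of differences between the groups described below, namely the member with the largest log2 fold change (Pcdh20), the type II cadherin with the lowest P value (Cdh8) and a highly expressed member with no detected difference (Pcdh17). Each is the stretch of 250 bases before the RefSeq start on GRCm38.p6, read in the direction of the gene. The windows are chr14:88471397-88471646 on the minus strand, chr8:99416472-99416721 on the minus strand and chr14:84443313-84443562 on the plus strand. The Pcdh20 and Pcdh17 windows end where the RefSeq gene span begins. The Cdh8 window lies before the start of the gene in GENCODE M21, but the RefSeq span of Cdh8 reaches 1195 bases farther upstream, so that other transcript models of the gene begin before this window. An exon of a noncoding gene on the opposite strand, A330008L17Rik, overlaps it. Capitals mark matches, on either strand, to the CCAAT box, the TATA box, the GC box, the E-box and the full or short cAMP response element, whose letters follow the sequences.
Pcdh20: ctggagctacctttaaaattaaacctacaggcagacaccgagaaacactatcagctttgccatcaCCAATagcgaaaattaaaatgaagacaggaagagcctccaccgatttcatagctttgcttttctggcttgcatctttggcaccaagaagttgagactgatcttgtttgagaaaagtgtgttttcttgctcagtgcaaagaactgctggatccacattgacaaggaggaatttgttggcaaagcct
Cdh8: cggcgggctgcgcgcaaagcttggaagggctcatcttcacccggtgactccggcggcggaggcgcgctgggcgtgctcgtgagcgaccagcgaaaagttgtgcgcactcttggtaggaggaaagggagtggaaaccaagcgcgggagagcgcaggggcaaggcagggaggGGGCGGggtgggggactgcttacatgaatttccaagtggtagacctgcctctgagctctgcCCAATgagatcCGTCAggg
Pcdh17: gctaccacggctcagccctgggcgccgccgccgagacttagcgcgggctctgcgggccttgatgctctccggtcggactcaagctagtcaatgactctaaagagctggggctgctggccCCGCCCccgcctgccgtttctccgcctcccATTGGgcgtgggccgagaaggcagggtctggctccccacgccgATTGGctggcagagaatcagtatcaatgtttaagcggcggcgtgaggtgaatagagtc
Pcdh20 had 1 match, a CCAAT box, and 3 CpG pairs in 250 bases, while Cdh8 had 20 CpG pairs with matches to the CCAAT box, the GC box and, in reverse, TGACG. Pcdh17 had 21 CpG pairs, 2 reversed CCAAT boxes and a reversed GC box. RefSeq windows were found for 22 of 34 members (25 windows, of which 19 likewise have a start site inside the RefSeq gene span), which held a median of 9 CpG pairs per gene against 6 over all 32851 windows. The CCAAT box, of the letters CCAAT, was found in 15 of 25 member windows (60.0%, against 33.8% of all windows). The GC box, GGGCGG, was found in 9 (36.0% against 32.7%), the TATA box, TATAAA, in 2 (8.0% against 12.4%) and the E-box, CACGTG, in 1 (4.0% against 6.02%). The full cAMP response element, TGACGTCA, was in 0 (against 1.55% of all windows). The short form, TGACG, which lies within it, was in 4 (16.0% against 17.8%). These are matches of letters, with no measurement of binding, and no test was run on them.

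At baseline the family covered a wide range of levels. In the control libraries Pcdh9, a delta-1 protocadherin, was the highest member with 41.1 ± 5.04 RPKM (SD, n = 4), followed by Pcdh10, a delta-2 protocadherin whose tail binds the WAVE complex, with 20.7 ± 2.78 RPKM. Cdh8, a type II cadherin of thalamic and cortical neurons, followed with 13.7 ± 1.48 RPKM. The next were Pcdh1 (13.1 ± 2.51 RPKM), N-cadherin Cdh2 (11.8 ± 1.28 RPKM) and Pcdh17 (11.7 ± 1.21 RPKM), a delta-2 protocadherin of developing synapses. With these lengths, the control ranges of Pcdh9, Pcdh10 and Cdh8 did not overlap, while those of Cdh8, Pcdh1, Cdh2 and Pcdh17 overlapped from each to the next. These 6 genes held 56.3% of the summed RPKM of the family. Over the whole order, 27 of 33 pairs of neighbours had overlapping control ranges, so most neighbouring ranks are not resolved. The order depended on the transcript length used. With the longest annotated transcript of each gene, a choice added after the data had been seen, Pcdh9 (6.521 kb in place of 3.714 kb) was at 23.4 RPKM, still the highest of the 34, but its control range (20.4 to 26.0 RPKM) overlapped that of Pcdh10 (18.3 to 24.7 RPKM). Cdh8 then ranked 5 with 11.3 RPKM, after Cdh2 and Pcdh17 and with its range overlapping theirs, Pcdh7 ranked 6 (9.90 RPKM) and Pcdh1 ranked 7 (9.43 RPKM). The 6 highest then held 52.3% of the summed RPKM, and 28 neighbouring pairs overlapped.

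In all, 26 members had at least 1 RPKM in the controls and 8 had less, or 25 and 9 with the longest transcripts. Several members near 0 are known from other tissues. E-cadherin (Cdh1) of epithelia, LI-cadherin (Cdh17) of intestine, Cdh26 and the endothelial genes Cdh5 (VE-cadherin) and Pcdh12 had between 0 and 22 reads per library. Cdh19, known from glia of peripheral nerve, had 9 to 74 reads. These 6 genes had a mean under 1 CPM in both groups, and their counts limit what difference could be detected. The tip-link genes of sensory hair cells stood apart from each other, with 1.31 ± 0.0773 RPKM for Pcdh15 and 0.276 ± 0.184 RPKM for Cdh23 in the controls, although with its longest transcript (9.104 kb in place of 5.696 kb) Pcdh15 was at 0.821 RPKM.

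**Figure D2:**
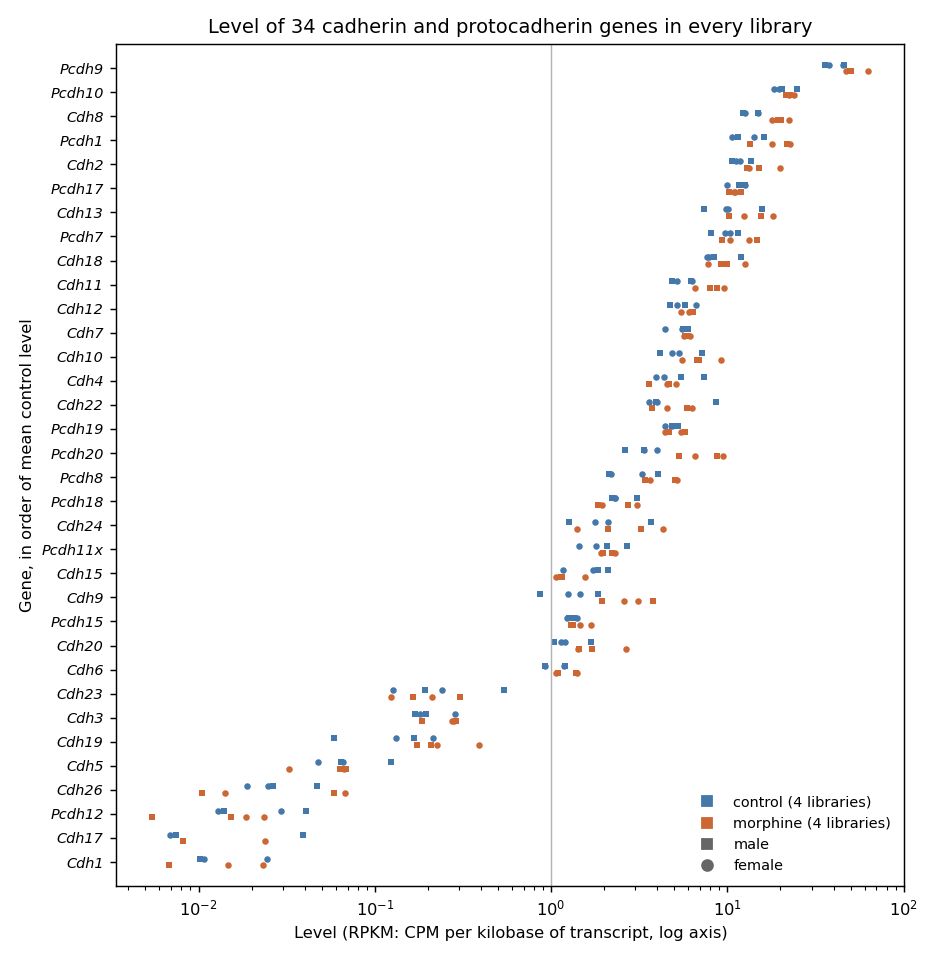
Level of each of the 34 genes (y axis, ordered by mean control level) in each library (x axis, RPKM on a log scale), control in blue and morphine in orange, squares for male and circles for female libraries. The grey line marks 1 RPKM, which 26 genes reach on average in the controls, and 5 values of 0 cannot be drawn on the log axis.

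The main comparison asked which genes on the tagged ribosomes differed after chronic morphine. By edgeR's quasi-likelihood test, 1 of the 34 members passed 0.05 after Benjamini-Hochberg adjustment over all genes, and so did 0.195% of all 18939 genes. Without adjustment, 10 members had an edgeR P value under 0.05, 9 of them higher and 1 lower with morphine, against 12.1% of all genes in either direction, 6.79% higher and 5.31% lower. DESeq2, the tool of the study, called 4 members, all upregulated, against 3.29% of the genes to which it gave an adjusted P value. In 5 members the lowest morphine library lay above the highest control, against 3.34% of all genes, and in 0 members did the highest morphine library lie below the lowest control, against 3.21%. The log2 fold change was above 0 in 26 of 34 members (76.5%) and in 51.4% of all genes. Its median over the members was 0.18, and over all genes 0.0088. The median was 0.33 without control 2 and 0.11 without morphine 8. The number of members at an unadjusted edgeR P value under 0.05 was 5 without control 1 and 6 without morphine 8. Over all genes it was 1433 of 18844 without control 1 and 1664 of 18786 without morphine 8, against 2292 of 18939 in the main test.

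Control 2 and morphine 8 often led their groups. Control 2 was the highest control in 25 of 34 members and morphine 8 the highest morphine library in 24. The summed CPM of the members was 988, 1257, 1012 and 1042 in controls 1, 2, 5 and 6, and 1145, 1343, 1160 and 1473 in morphine 3, 4, 7 and 8. The sums therefore overlapped, because control 2 lay above morphine 3 and 7. Control 2 and morphine 8 were both left out in a fit chosen after the data had been seen. There 12 members had an unadjusted edgeR P value under 0.05, and so did 2586 of all 18587 genes tested. The median log2 fold change of the members was 0.23, and 0 members were called after adjustment.

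**Figure D3:**
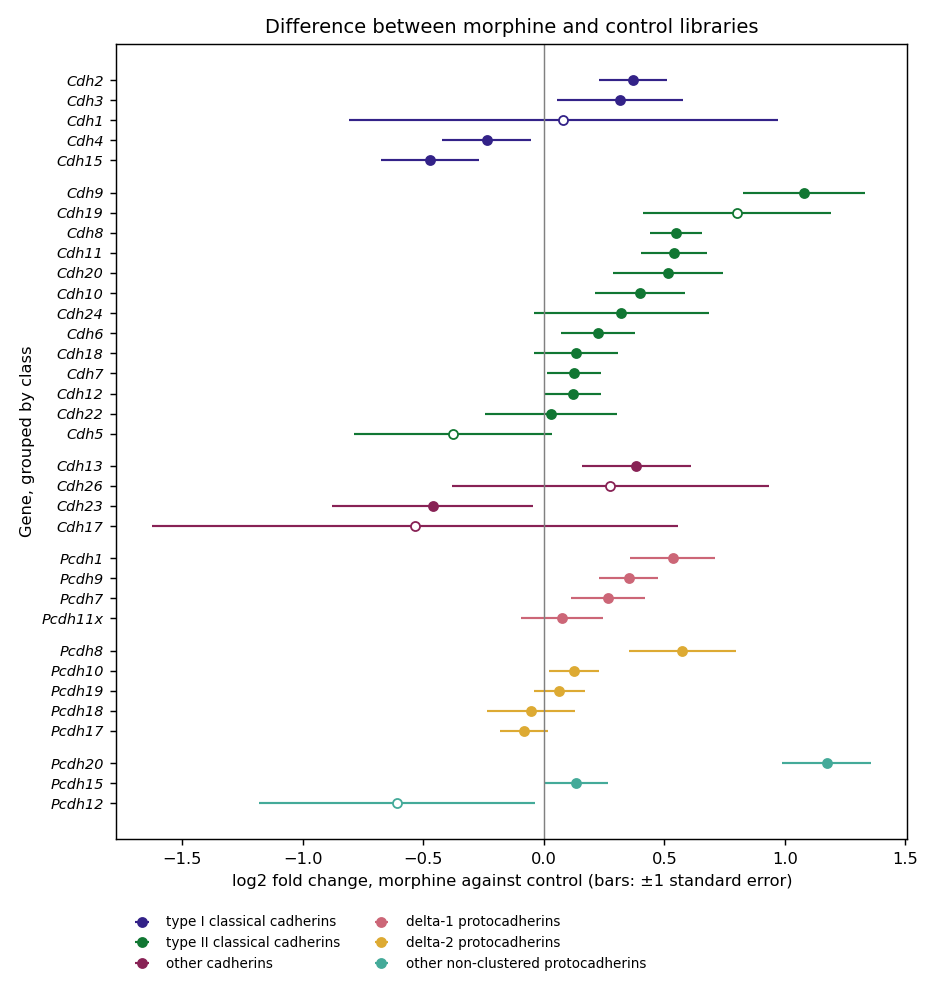
Log2 fold change of each gene (x axis, morphine against control, edgeR, bars ±1 standard error), grouped by class, with open points for the 6 genes under 1 CPM in both groups. In the type II cadherins 12 of 13 points lie above 0, and Pcdh20 (1.17) and Cdh9 (1.08) lie farthest to the right.

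Pcdh20 was the member that rose by the main test. This protocadherin, which stands outside the delta-1 and delta-2 classes as grouped here, is known for placing neurons in the middle layer of the neocortex. It lies at chr14:88464743-88471396 (transcript NM_178685). Its level was 13.8, 17.7, 17.5 and 20.8 CPM in controls 1, 2, 5 and 6, and 28.0, 45.6, 34.4 and 49.6 CPM in morphine 3, 4, 7 and 8. The groups did not overlap, and morphine 3, the lowest of its group, still lay above control 6, the highest of the controls. The means were 17.5 ± 2.88 and 39.4 ± 9.96 CPM (SD, n = 4 each), a ratio of 2.25. Between the groups the log2 fold change was 1.17 (SE 0.18, 95% interval 0.77 to 1.58), with adjusted P = 0.0425 by edgeR. DESeq2 gave an adjusted P value of 2.56e-06. The exact two-sided permutation test of this gene gave P = 0.0286, the smallest that 4 libraries against 4 allow. That value follows from the lack of overlap and adds nothing to it. Such a lack of overlap with morphine higher was found in 3.34% of all genes.

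The adjusted P value of Pcdh20 was close to the threshold in edgeR. It was 0.107, 0.0507 and 0.0623 without control 1, 2 or 5, and 0.136, 0.0658 and 0.101 without morphine 4, 7 or 8. The call was kept without control 6 or morphine 3. Over these 8 fits the log2 fold change stayed between 1.04 and 1.31. The call was also lost with limma-voom (adjusted P = 0.0566), with edgeR's filterByExpr (0.0579) and with at least 10 reads required in every library (0.0554).

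Among the type II classical cadherins, 12 of 13 had a log2 fold change above 0, with a median of 0.32, and 4 had an unadjusted edgeR P value under 0.05. DESeq2 called 3 of the 13, and edgeR called 0 after adjustment. Cdh8 (chr8:99024471-99417666) had the lowest P value among them. Its level was 46.2, 56.5, 47.8 and 56.9 CPM in controls 1, 2, 5 and 6, and 73.4, 76.7, 68.0 and 85.2 CPM in morphine 3, 4, 7 and 8. Every morphine library was above every control, and the spread within each group was small beside the gap between the means. The log2 fold change was 0.55 (SE 0.11), with adjusted P = 0.0660 by edgeR and 0.000648 by DESeq2.

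Cdh9, known for its role at the synapses of hippocampal mossy fibres, lies at chr15:16728550-16857138 and had a low level and the second largest log2 fold change of the family. It was at 2.51, 5.34, 3.59 and 4.24 CPM in controls 1, 2, 5 and 6, and at 5.59, 11.0, 7.53 and 9.0 CPM in morphine 3, 4, 7 and 8. The groups were just apart, with control 2 and morphine 3 nearest to each other. Its log2 fold change was 1.08 (SE 0.25), with adjusted P = 0.114 by edgeR and 0.00359 by DESeq2. Cdh11 (chr8:102632095-102785493), a cadherin of mesenchyme that is also found at excitatory synapses, was at 27.5, 35.3, 29.2 and 35.6 CPM in controls 1, 2, 5 and 6, and at 44.9, 49.3, 36.9 and 54.3 CPM in morphine 3, 4, 7 and 8. Here too the groups did not overlap, with morphine 7 little above control 6. This gave a log2 fold change of 0.54 (SE 0.14), with adjusted P = 0.143 by edgeR and 0.0183 by DESeq2. For Cdh8, Cdh9 and Cdh11, leaving out any 1 library gave log2 fold changes of 0.48 to 0.59, 0.90 to 1.27 and 0.45 to 0.62, and the unadjusted edgeR P value stayed under 0.05 in all 8 fits of each.

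Cdh20, the other type II cadherin at an unadjusted P value under 0.05, was less clearly separated. It was at 4.15, 6.75, 4.57 and 4.83 CPM in controls 1, 2, 5 and 6, and at 6.89, 5.75, 5.71 and 10.6 CPM in morphine 3, 4, 7 and 8. Control 2 lay among the morphine libraries, and morphine 8 stood above the rest. Between the groups the log2 fold change was 0.51 (SE 0.23; adjusted P = 0.40 by edgeR). Without morphine 8 it was 0.27, and the unadjusted P value rose past 0.05 without morphine 3, morphine 8 or control 1, 5 or 6. The other type II members with a mean over 1 CPM (Cdh6, Cdh7, Cdh10, Cdh12, Cdh18, Cdh22 and Cdh24) had log2 fold changes between 0.03 and 0.40 and edgeR P values between 0.0555 and 0.916. The intervals do not show that these genes stayed level. That of Cdh10 ran from -0.01 to 0.81 and that of Cdh24 from -0.48 to 1.119. Without control 2, Cdh10 had 0.57 and Cdh22 had 0.42, both at an unadjusted P value under 0.05, and Cdh24 had 0.69. Cdh10 also had such a P value without morphine 7 (0.48) and without control 2 and morphine 8 (0.42). Cdh18 and Cdh22 changed sign when morphine 8 was left out (-0.0037 and -0.089), and Cdh22 also without morphine 4 or control 1, 5 or 6.

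**Figure D4:**
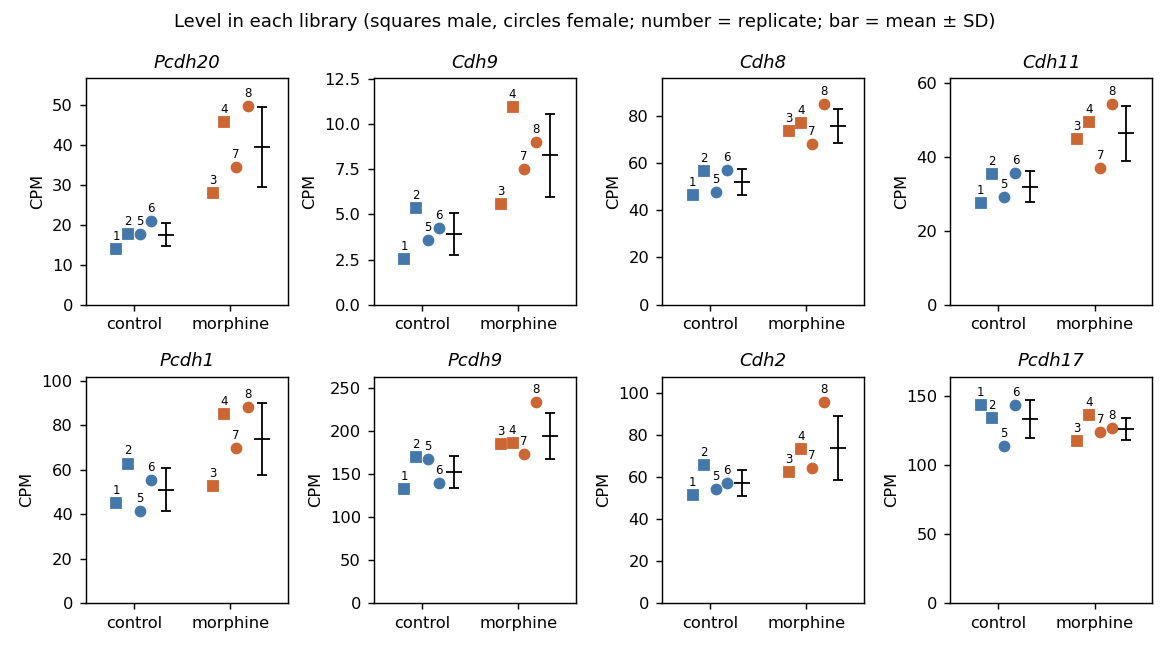
Level of 8 members in each library (y axis, CPM from 0), control in blue and morphine in orange, squares for male and circles for female libraries, with replicate numbers and the mean ± SD of each group (bars). In Pcdh20, Cdh9, Cdh8, Cdh11 and Pcdh9 the morphine points all lie above the control points, while in Pcdh17 the groups overlap throughout.

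The type I cadherins did not share a direction. Cdh2, N-cadherin, the main classical cadherin of neural tissue, was at 51.5, 65.9, 54.5 and 57.4 CPM in controls 1, 2, 5 and 6, and at 62.6, 73.4, 64.2 and 95.9 CPM in morphine 3, 4, 7 and 8. Control 2 lay above morphine 3 and 7. The log2 fold change was 0.37 (SE 0.14; adjusted P = 0.319 by edgeR), and without morphine 8 it was 0.22. The unadjusted edgeR P value rose past 0.05 without morphine 8 or control 1, 5 or 6. Cdh15, the M-cadherin of muscle and of cerebellar granule cells, was the only member lower at an unadjusted P value under 0.05. Its level was 6.00, 6.84, 5.59 and 3.80 CPM in controls 1, 2, 5 and 6, and 3.77, 3.69, 3.47 and 5.06 CPM in morphine 3, 4, 7 and 8. Control 6 lay among the morphine libraries, and morphine 8 lay above control 6. Between the groups the log2 fold change was -0.47 (SE 0.20; adjusted P = 0.381 by edgeR). Its unadjusted P value was under 0.05 without control 6 or morphine 8 and above it without any other library. Cdh4 (R-cadherin) and Cdh3 (P-cadherin) had log2 fold changes of -0.24 and 0.32, and neither passed at an unadjusted P value. Cdh3 had 0.48 without control 6 and 0.22 without control 1. For Cdh4, control 2 was the highest of all 8 libraries (47.1 CPM).

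All 4 delta-1 protocadherins had a log2 fold change above 0 (median 0.31). After adjustment edgeR and DESeq2 each called 0 of them, and 2 had an unadjusted edgeR P value under 0.05. Pcdh9 was at 133, 170, 167 and 140 CPM in controls 1, 2, 5 and 6, and at 185, 186, 174 and 234 CPM in morphine 3, 4, 7 and 8. The groups did not overlap, though morphine 7 and control 2 were close. On the log2 scale the difference was 0.35 (SE 0.12; adjusted P = 0.278 by edgeR), and the unadjusted P value rose past 0.05 without control 1, control 6 or morphine 8. Pcdh1 was at 44.8, 62.8, 41.4 and 55.2 CPM in controls 1, 2, 5 and 6, and at 52.6, 84.9, 69.97 and 88.2 CPM in morphine 3, 4, 7 and 8. Morphine 3 lay within the control range and the other morphine libraries above it. The log2 fold change was 0.53 (SE 0.17; adjusted P = 0.249 by edgeR), and it lay between 0.43 and 0.67 with any 1 library left out, with an unadjusted P value under 0.05 in all 8 fits. Pcdh7 (0.27, SE 0.15) and Pcdh11x (0.07, SE 0.17) did not pass without adjustment, and Pcdh11x had -0.07 without control 6. Without morphine 3 the value of Pcdh7 was 0.37, with an unadjusted P value under 0.05, and without morphine 4 it was 0.15.

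The delta-2 protocadherins were closer to level, with a median log2 fold change of 0.06. Pcdh8, also called arcadlin, is induced by neuronal activity and takes N-cadherin from the membrane. It was at 8.56, 16.1, 8.70 and 13.1 CPM in controls 1, 2, 5 and 6, and at 13.6, 20.2, 14.6 and 20.7 CPM in morphine 3, 4, 7 and 8. Only control 2 overlapped the morphine group. This gave a log2 fold change of 0.57 (SE 0.22; adjusted P = 0.322 by edgeR), and the unadjusted P value rose past 0.05 without control 1 or 5 or morphine 4 or 8. Pcdh10 was at 167, 204, 151 and 162 CPM in controls 1, 2, 5 and 6, and at 176, 187, 185 and 197 CPM in morphine 3, 4, 7 and 8. Control 2 was the highest of all 8 libraries. Pcdh17 was at 143, 134, 114 and 143 CPM in controls 1, 2, 5 and 6, and at 117, 136, 124 and 127 CPM in morphine 3, 4, 7 and 8. Its groups overlapped, with a log2 fold change of -0.08 and a 95% interval of -0.30 to 0.13, so that a difference of the size seen in Pcdh20, Cdh9, Cdh8 or Cdh11 lay outside it. Without control 5 it was -0.17. Pcdh10 had a log2 fold change of 0.13 (interval -0.10 to 0.36). Without control 2, its highest library, it was 0.22 with an unadjusted P value under 0.05, and without control 5 it was 0.055. Pcdh19, an X-linked gene known from epilepsy, and Pcdh18 had log2 fold changes of 0.06 and -0.05.

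The remaining members with a mean over 1 CPM had unadjusted P values over 0.05 in the main test. Cdh13, T-cadherin, which is held to the membrane by a lipid anchor and has no tail, ranged from 28.0 to 59.5 CPM in the controls and from 38.4 to 68.3 CPM with morphine. This gave a log2 fold change of 0.38 (SE 0.23; adjusted P = 0.542 by edgeR). It was 0.63 without control 2, 0.48 without control 2 and morphine 8, and 0.23 without control 1, and the unadjusted P value was under 0.05 in the first 2 of these fits. The tip-link genes Cdh23 and Pcdh15 had log2 fold changes of -0.46 (SE 0.42) and 0.13 (SE 0.13). For the 6 members under 1 CPM in both groups the log2 fold changes ran from -0.61 in Pcdh12 to 0.80 in Cdh19, with standard errors between 0.39 and 1.09.

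Several members share a chromosome. Chromosome 8 holds 7 members, and chromosomes 14 and 15 hold 5 each. On chromosome 14, Pcdh17, Pcdh20 and Pcdh9 lie within chr14:84443563-93892834 (mm10) and had log2 fold changes of -0.08, 1.17 and 0.35. The 5 type II genes of chromosome 15 (Cdh6, Cdh9, Cdh10, Cdh12 and Cdh18) all had log2 fold changes above 0, from 0.12 in Cdh12 to 1.08 in Cdh9. On chromosome 8, Cdh8 and Cdh11 (0.55 and 0.54) share the chromosome with the endothelial Cdh5 (-0.38, SE 0.41). In the annotation, exons of 7 members (Cdh8, Cdh9, Cdh12, Pcdh7, Pcdh8, Pcdh10 and Pcdh19) overlap a noncoding gene. For Cdh12 that gene lies on the same strand, and for the other 6 on the opposite strand. The counting is not stated to use strand, so the counts of these 7 are uncertain to that extent, and those of Cdh12 would be so with strand-aware counting too.

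For 7 members the table lists several transcripts, with reads shared between them counted on each. Of their transcripts, 16 had under 90% of the reads of the main one in some library. The second Pcdh7 transcript, NM_018764, held 53.8 ± 1.90% of the reads of the main transcript in the controls and 52.6 ± 4.22% in the morphine group (SD, n = 4 each). For Pcdh10 transcript NM_011043 the shares were 64.5 ± 3.38% and 65.6 ± 2.84%. The lowest P value among the 16 shares was 0.143 (exact two-sided permutation test, adjusted P = 0.572), so a difference in transcript use was not detected. The test could detect little. Its smallest possible P value is 0.0286, which a single share could not carry through adjustment over 16. Most of the 16 are transcripts of Pcdh15 that share reads.

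The sexes were compared in a fit that also held the condition. By edgeR, 0 members differed by sex after adjustment and 0 at an unadjusted P value under 0.05, against 3.1% of all genes, and DESeq2 also called 0. For the interaction of sex and morphine, edgeR called 0 members after adjustment, 1 at an unadjusted P value under 0.05 (1.72% of all genes), and DESeq2 called 0. That member was Cdh4, named after its values were seen. It was at 34.9 and 47.1 CPM in the male controls and at 22.9 and 29.9 CPM with morphine, against 28.0 and 25.1 CPM in the female controls and 29.0 and 32.7 CPM with morphine. The male libraries thus lay lower and the female libraries higher with morphine, with an interaction of 0.85 on the log2 scale and adjusted P = 1 by edgeR. Within the sexes, the ratio of the morphine to the control mean was 2.33 in males and 2.19 in females for Pcdh20, 2.11 in both for Cdh9, 1.46 in both for Cdh8, 1.5 and 1.41 for Cdh11, and 1.23 and 1.33 for Pcdh9. These 5 genes are those whose groups did not overlap, so their direction within each sex is fixed by that choice. Over all 34 members, the ratio was above 1 in 20 members in males (median 1.05), against 49.5% of all genes, and in 28 in females (median 1.31), against 49.6%. Both morphine libraries lay above both controls in 7 members in males, against 14.8% of all genes, and in 18 in females, against 19.1%. With 2 libraries per group and sex, no test was run on these counts, and their difference between the sexes was not tested. Control 2, which led the controls in most members, is male, morphine 8 is female, and the female values also rest on control 5, whose pooling is uncertain.

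Genes that act with cadherins gave a mixed picture. Of 16 catenins and adhesion partners, edgeR and DESeq2 each called 0 after adjustment. At an unadjusted edgeR P value under 0.05, 2 were higher and 3 lower (median log2 fold change -0.03). The shares over all genes were 6.79% higher and 5.31% lower. Arvcf, a catenin of the p120 family, was at 59.7, 53.4, 52.2 and 64.2 CPM in controls 1, 2, 5 and 6, and at 42.1, 46.6, 49.3 and 41.4 CPM in morphine 3, 4, 7 and 8. All its morphine libraries lay below the controls, as in 3.21% of all genes. The log2 fold change of Arvcf was -0.35 (SE 0.10, adjusted P = 0.188 by edgeR). Jup, plakoglobin, had -0.51 (SE 0.16; adjusted P = 0.240 by edgeR), with its groups overlapping. Ctnnal1, an alpha-catenin relative, had 0.53 (SE 0.17; adjusted P = 0.224 by edgeR) and Pvrl3, the adhesion molecule nectin-3, had 0.59 (SE 0.22; adjusted P = 0.308 by edgeR). Of the 6 processing enzymes, which cleave cadherins, 6 had log2 fold changes above 0 (median 0.22), and only Ncstn, a subunit of gamma-secretase, passed without adjustment (0.30, SE 0.14; adjusted P = 0.411 by edgeR).

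Of the 11 measured genes of the WAVE complex and of partners of protocadherin tails, 5 were higher and 1 lower at an unadjusted edgeR P value under 0.05 (median log2 fold change 0.27). The shares over all genes were 6.79% higher and 5.31% lower. DESeq2 called 4 of the 11 after adjustment, against 3.29% of the genes to which it gave an adjusted P value. EdgeR called 0, against 0.195% of all genes. Wasf1, the actin-regulating subunit WAVE1, was at 216, 172, 202 and 219 CPM in controls 1, 2, 5 and 6, and at 232, 360, 328 and 283 CPM in morphine 3, 4, 7 and 8. The groups did not overlap, with morphine 3 close to the controls (log2 fold change 0.57, SE 0.14; adjusted P = 0.127 by edgeR and 0.0120 by DESeq2). Nckap1, the WAVE subunit that binds Pcdh10, was at 670, 654, 696 and 694 CPM in controls 1, 2, 5 and 6, and at 922, 796, 824 and 776 CPM in morphine 3, 4, 7 and 8. Its log2 fold change was 0.29 (SE 0.095; adjusted P = 0.248 by edgeR and 0.0300 by DESeq2), again without overlap. Dab1, the adaptor of reelin signalling, had 0.47 (SE 0.12; adjusted P = 0.138 by edgeR and 0.0191 by DESeq2). Taok2, the kinase that acts with Pcdh8, had -0.38 (SE 0.11; adjusted P = 0.183 by edgeR and 0.0450 by DESeq2), with every morphine library below the controls.

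**Figure D5:**
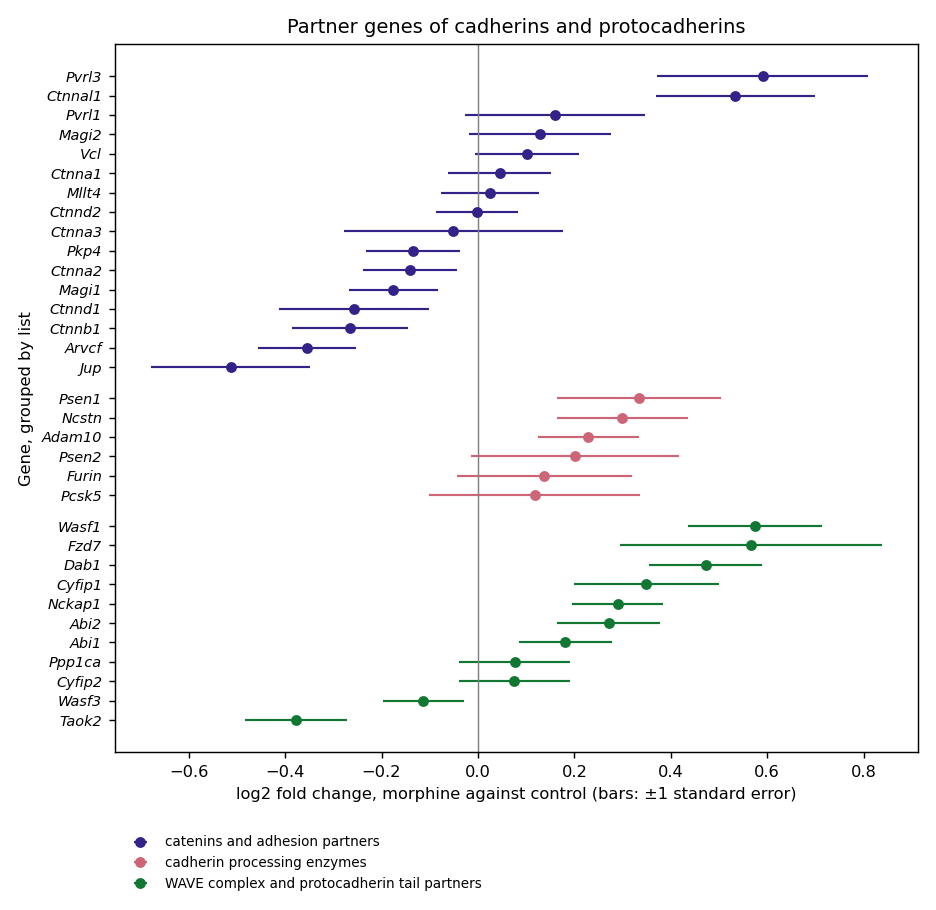
Log2 fold change (x axis, morphine against control, edgeR, bars ±1 standard error) of the measured partner genes, grouped as catenins and adhesion partners, processing enzymes, and WAVE complex and protocadherin tail partners. The catenin list lies on both sides of 0 (median -0.03), and 9 of 11 genes of the last list lie above 0 (median 0.27).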

How the data were processed

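The authors deposited unnormalized read counts, whole numbers, for each RefSeq transcript (mm10) in the 8 libraries. By the study's methods, transcripts were quantified with Salmon against an mm10 index, with correction for GC bias, and tximport brought the estimates to gene level for DESeq2. The deposited table is per transcript, and in it reads shared by transcripts of a gene are counted on each of them. Which step made it is not given in the sources used here. All 8 columns were used, and 0 were left without a sample. Libraries were paired-end and made with a directional kit. Cdh16 was not analysed here.

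For each gene the row with the most reads was kept. All 18939 genes entered the quasi-likelihood test of edgeR 4.0.16 under R 4.3.3, with TMM factors and the condition as the only term, and P values were adjusted by Benjamini-Hochberg over all genes, with a threshold of 0.05. Sex was tested beside condition, and the interaction with both terms present. CPM were computed from the counts and the TMM-normalized library sizes, and RPKM from CPM and GENCODE M21 transcript lengths. Exact two-sided permutation tests of single genes used log2 of CPM plus 0.5 over the 70 arrangements of 8 libraries. Alternatives were DESeq2 1.42.0, limma-voom (limma 3.58.1), other scaling factors (RLE, upper-quartile), stricter filters (filterByExpr, or a minimum of 10 counts per library), a term for sex, summed transcripts, and the omission of each library in turn. Leaving out control 2 and morphine 8 together was added after the data had been seen, as were RPKM from the longest transcript of each gene. The 95% intervals of log2 fold changes use the t distribution with the residual plus prior degrees of freedom of the fit (11.4 for each member quoted). The scripts were tested on simulated data. Promoter windows are from RefSeq on GRCm38.p6, and figures were drawn with matplotlib 3.10.9.

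The members, gene lists, motifs and promoters shown were chosen with earlier results of these data known. Members are given library by library if edgeR or DESeq2 called them, if their unadjusted edgeR P value was under 0.05, if their groups did not overlap, or if they were among the 6 highest per kilobase in the controls. At most 4 partner genes per list are named, by lowest P value among those under 0.05. Nothing in the sources says that the libraries of a group were made on separate days, and no batch is given, so P values measure the spread between these pooled samples. PCR copies are not marked, so reads are not independent molecules.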

Additional observations from a re-analysis of the deposited data

Results flagged for a closer look

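In 3 of 57 groups of 4 libraries tested (those whose highest library had at least 1 CPM), 1 library stood farther from the others than Dixon's test allows at the 95% level. Chance flags about 1 in 20 groups. Cdh22, a type II cadherin, was at 31.7 CPM in control 2, and between 13.4 and 14.9 CPM in the other controls. Pcdh18, a delta-2 protocadherin, was at 15.9 CPM in control 2, and between 11.49 and 11.97 CPM in the other controls. Cdh3, P-cadherin, was at 0.815 CPM in morphine 3, and between 1.201 and 1.27 CPM in the other morphine libraries. Both flags in the control group were in control 2, the library that was the highest control in 25 of 34 members.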

How the results depend on the processing

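The number of members called (1, Pcdh20) was 4 with DESeq2 (Pcdh20, Cdh8, Cdh9 and Cdh11), and 0 with limma-voom, with filterByExpr and with at least 10 counts in every library, each of which had 9 members at an unadjusted P value under 0.05. It was also 0 with control 2 and morphine 8 both left out (12 unadjusted), and 0 to 1 with each library left out in turn. It was 1 with RLE factors, upper-quartile factors, sex in the model and the sum over transcripts. The number at an unadjusted P value under 0.05 (10) was 5 to 13 with each library left out and 9 to 12 otherwise. Over all genes it ran from 1433 of 18844 (without control 1) to 3476 of 18777 (without control 2) with each library left out. Otherwise it ran from 1929 of 13703 (at least 10 counts) to 2586 of 18587 (both libraries left out). The median log2 fold change of the members (0.18) was 0.11 to 0.33 with each library left out and 0.14 to 0.25 otherwise. Over all genes, calls numbered 37 in the main test, 502 with DESeq2, 23 with limma-voom, 14 with filterByExpr, 15 with at least 10 counts, 110 with sex in the model, 22 with the sum over transcripts, 0 with both libraries left out and 0 to 77 with each left out. The cause was not tested. Among the log2 fold changes of the 34 members and of the 12 partner genes under 0.05 without adjustment, 21 values in 9 members reversed, and none in a partner gene or in a member under 0.05 without adjustment. With sex in the model Cdh1 had -0.029 (main test 0.081), and with both libraries left out Cdh1 had -0.69 and Cdh23 had 0.074 (-0.46). With each library left out in turn, Cdh1 ran from -0.65 to 0.66 (reversed without control 1, morphine 7 or morphine 8), Cdh17 from -1.96 to 0.83 (control 2; main test -0.53), Cdh18 from -0.0037 to 0.31 (morphine 8; 0.13) and Cdh22 from -0.11 to 0.42 (control 1, 5 or 6, morphine 4 or 8; 0.029). Cdh23 ran from -0.72 to 0.10 (control 2), Cdh26 from -0.15 to 0.60 (morphine 3 or 7; 0.28), Pcdh11x from -0.075 to 0.25 (control 6; 0.074), Pcdh18 from -0.20 to 0.068 (control 2, morphine 4 or 7; -0.054) and Pcdh19 from -0.00029 to 0.11 (morphine 4; 0.065). Control levels from the longest transcripts moved by more than 1 SD for 5 of 34 members, namely Pcdh9 (23.4 RPKM), Cdh8 (11.3 RPKM), Pcdh1 (9.43 RPKM), Cdh7 (3.65 RPKM) and Pcdh15 (0.821 RPKM). Members called by sex or by the interaction were 0 in the main test and in the alternatives run for them. No paired analysis was possible because the groups share no replicate number. Depth limited the 6 members under 1 CPM.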
